A study of Mus musculus with 29 samples.

Results

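The 27 genes described here make cholesterol, sense its level or move it through and out of the cell. They were taken by symbol from a list of the pathway and comprise 18 enzymes of the route from acetoacetyl-CoA to cholesterol, 5 genes of the SREBP control system and 4 genes of sterol trafficking and efflux. They are 27 of the 35199 genes listed for the mouse bladder libraries, and all 27 passed the filter on low values in each of the 5 comparisons made. The filter kept genes that reached 10 normalized counts in a number of libraries no lower than the size of the smaller group.

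The mutant mice carried a Rosa26 cassette in which the VP16 activator is fused to Pparg1, a nuclear receptor of lipid metabolism and urothelial differentiation. The fusion acts without ligand and is made once Cre removes a stop signal. Cre came from Krt5CreERT2, which is active in basal urothelial cells after tamoxifen, and mutants are called K5VP16;Pparg. RNA was sequenced from Gfp+ sorted cells 4 days after tamoxifen and from laser-captured tumors made with the bladder carcinogen BBN. The question put to these genes was whether their transcripts differed between mutant and control cells, between luminal and basal tumors, and between domains of a tumor.

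The 4-day controls (n = 4) are labelled wild type and untreated. They are given as K5;mTmG in the study, mTmG being a reporter that turns Gfp on where Cre has acted. The 4-day mutants (n = 5) are labelled K5VP16;Pparg+/- and untreated, and are given as K5VP16;Pparg;mTmG in the study. The cassette is described there as also holding EGFP, so Gfp in the mutants need not come from mTmG alone. Both groups received intraperitoneal tamoxifen over a week before the sort. The tumor mice drank water with 0.05% BBN, and tamoxifen was given into the bladder after the first month of BBN. Basal tumors (n = 3) came from control mice, VP16;Pparg fl/fl by genotype. Luminal tumors (n = 3), luminal domains (n = 3) and basal-like domains (n = 3) came from K5VP16;Pparg mice, the domains being captured as the top and the bottom of luminal tumors. The labels give 5 months of BBN for all tumor groups and 4 months in their titles, and mice were 8 to 12 weeks old when tamoxifen was given. The labels do not say that each library came from another animal, so the p-values measure the spread between these libraries. Libraries carry letters here, which follow the order of the column names within a group.

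Cholesterol is built from acetyl-CoA by the mevalonate pathway, which makes the isoprenoid units, and then by the squalene and sterol steps, which close and trim the ring system. When sterol in the endoplasmic reticulum is low, SCAP carries the SREBP transcription factors to the Golgi, where they are cut and released to the nucleus to switch on the enzyme genes; when sterol is high, INSIG proteins hold SCAP back. LXR receptors respond to oxysterols and raise the exporters ABCA1 and ABCG1, and the urothelium itself is known for an apical membrane rich in cholesterol and uroplakins.

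SREBP proteins bind sterol regulatory elements, and at the promoters of this pathway they work with the CCAAT-binding factor NF-Y and with Sp1. Promoter windows of 250 bases before the RefSeq start (GRCm38.p6) were found for 21 of the 27 genes, 15 of them enzymes, and were searched on both strands. The letters TCACNCCAC, a sterol regulatory element form, stood in 1 of the 21, Hmgcs1, and in 1.22% of the 27025 genes with a window. CCAAT stood in 18 of the 21, with Acat2, Scap and Abca1 lacking it, and in 37.5% of all genes. GGGCGG, the Sp1-type GC box, stood in 20 of the 21 (not in Pmvk) and in 35.4% of all genes. A gene with several listed starts was counted where any of its windows held the letters, and for Scap the GC box lies in the second of its 2 windows, not in the window printed. No match of TCACNCCAC overlapped a CCAAT match in the windows printed. A match describes these letters only, and a window without one says only that the letters are not in it. The windows below are shown because they belong to the enzyme with the element (Hmgcs1, synthase of HMG-CoA), to enzymes and a regulator whose values are given library by library in at least 1 comparison (Idi1, Cyp51, Nsdhl, Insig1) and to Scap, the only gene of the 27 that passed the test in any comparison. Capitals mark TCACNCCAC or CCAAT on either strand, and each window is written 5′ to 3′ on the gene's own strand.
Hmgcs1 (chr13:119690101-119690350, plus strand): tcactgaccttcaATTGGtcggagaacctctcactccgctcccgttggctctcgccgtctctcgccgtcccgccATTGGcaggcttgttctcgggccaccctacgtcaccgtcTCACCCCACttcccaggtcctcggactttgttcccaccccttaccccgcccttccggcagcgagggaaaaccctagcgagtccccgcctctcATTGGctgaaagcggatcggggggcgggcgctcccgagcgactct
Idi1 (chr13:8885356-8885605, plus strand): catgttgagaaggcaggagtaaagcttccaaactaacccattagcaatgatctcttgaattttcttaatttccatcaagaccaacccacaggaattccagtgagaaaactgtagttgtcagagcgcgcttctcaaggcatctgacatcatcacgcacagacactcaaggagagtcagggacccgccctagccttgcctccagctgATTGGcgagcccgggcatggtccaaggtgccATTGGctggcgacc
Cyp51 (chr5:4104698-4104947, minus strand): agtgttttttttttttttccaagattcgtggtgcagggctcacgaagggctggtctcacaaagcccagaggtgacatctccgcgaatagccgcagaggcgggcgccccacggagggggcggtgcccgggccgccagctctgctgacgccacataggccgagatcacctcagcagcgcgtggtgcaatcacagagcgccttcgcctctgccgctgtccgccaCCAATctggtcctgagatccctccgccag
Nsdhl (chrX:72918271-72918520, plus strand): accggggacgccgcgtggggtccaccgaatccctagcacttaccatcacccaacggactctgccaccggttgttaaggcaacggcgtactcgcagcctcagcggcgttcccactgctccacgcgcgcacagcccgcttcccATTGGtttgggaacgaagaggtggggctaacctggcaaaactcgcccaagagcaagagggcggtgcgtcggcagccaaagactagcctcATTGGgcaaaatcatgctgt
Insig1 (chr5:28071162-28071411, plus strand): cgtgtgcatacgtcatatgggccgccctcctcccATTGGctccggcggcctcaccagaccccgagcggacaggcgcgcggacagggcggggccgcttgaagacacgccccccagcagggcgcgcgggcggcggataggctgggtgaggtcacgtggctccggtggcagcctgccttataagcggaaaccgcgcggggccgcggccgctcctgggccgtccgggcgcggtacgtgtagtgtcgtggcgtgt
Scap (chr9:110333038-110333287, plus strand): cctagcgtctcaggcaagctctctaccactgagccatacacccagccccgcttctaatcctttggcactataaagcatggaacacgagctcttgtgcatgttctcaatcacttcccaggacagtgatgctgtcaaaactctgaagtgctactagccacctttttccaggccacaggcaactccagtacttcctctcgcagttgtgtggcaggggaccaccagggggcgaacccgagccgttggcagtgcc

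Sums of the normalized counts ran from 36520193 to 41435665 per library in the table of sorted cells and from 41697178 to 53252995 in the tumor table. These values are already scaled, and the depth in reads is not given. Libraries were scaled unequally: the commonest nonzero low value ran from 0.73 in mutant D to 1.47 in mutant C among the sorted cells. The target gene Fabp4 checked the labels, with 207 to 467 normalized counts in the 4-day controls and 4969 to 30598 in the mutants (log2 fold change 4.64, limma adjusted p = 0.00171). Pparg itself had 9381 to 9999 in the controls and 6111 to 9032 in the mutants (log2 fold change -0.36, adjusted p = 0.126), and 13 to 126 in basal tumors against 3579 to 8632 in luminal tumors (6.74, adjusted p = 0.0135). Basal urothelial markers summed to 141415 to 183530 in the 4-day controls and 111859 to 135300 in the mutants. Superficial cell markers were also present in these sorted cells, at 201277 to 381194 and 252099 to 493810. Control A had a low level of Y-linked genes, with a mean of 5.59 on the log2 scale, as had all 5 mutants (5.16 to 5.91), whereas controls B, C and D had 11.05 to 11.11. Sex and genotype therefore move together in the sorted cells, with control A as the only control on the mutants' side.

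Scap rose in the mutant cells 4 days after tamoxifen and was the only gene of the 27 that passed the test there. It encodes the sterol-sensing escort that carries SREBP to the Golgi and lies on chromosome 9 (GRCm38.p6, 110333288 to 110384949). Scap had 6212, 6640, 6704 and 5270 normalized counts in controls A to D and 8596, 8612, 8987, 9353 and 10048 in mutants A to E. Every mutant lay above every control, and control A stood among the other controls. The means were 6206 ± 662 (SD, n = 4) and 9119 ± 605 (SD, n = 5), a 1.47-fold difference (log2 fold change 0.56 ± 0.10 SE, limma adjusted p = 0.0189). Of the 16413 genes tested, 2.85% passed the threshold of 0.05 and 1.77% passed it as higher, so 1 of 27 is near that background. Groups without overlap were found in 4.67% of all genes with the mutants higher, and in 4.51% with the mutants lower, the latter in none of the 27. The call was lost without control D (log2 fold change 0.48, adjusted p = 0.0511), in the separately normalized table of 3 against 3 libraries (0.58, adjusted p = 0.105) and with a term for the Y-linked level (0.55, adjusted p = 0.383). In sorted bulk cells, more cells of a type and more RNA per cell cannot be told apart, here or in the comparisons that follow.

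The enzymes lay mostly above the controls without passing the test, and the spread among the libraries was as wide as the difference. Of the 18, 17 had a positive difference, only Hmgcs1 a negative one, and their median log2 difference was 0.31 beside 0.00 over all genes tested, of which 50.5% lay above 0. None was called in limma. With Scap, 2 of the 27 had an unadjusted p under 0.05, both higher, and the enzyme among them was Ebp, while 20.8% of all genes passed that mark and 11.8% passed it as higher. Control A had the highest value of the 4 controls in 18 of 18 enzymes, against 27.1% of all genes. Its ratio to the mean of the other 3 had a median of 1.99 over the enzymes and 0.991 over all genes. Control A was taken for this ratio as the control with the highest enzyme mean, so a high ratio is partly built in. Among the mutants, E was highest in 13 of 18 enzymes and D lowest in 16 of 18, against 19.4% and 17.2% of all genes. The mean log2 level over the 18 enzymes was 11.38 in control A and 10.44 to 10.55 in the other controls, and it ran from 10.48 in mutant D to 11.46 in mutant E. Without control A the enzymes' median difference was 0.50 and 9 of 18 were higher at an unadjusted p under 0.05, beside 10.6% of all genes in that fit. In the table of 3 against 3 libraries, which lacks control A and also mutants A and D, the median was 0.58 and 10 of 18 were higher at that mark, beside 8.59% of all genes, with none called. Without mutant D alone the median was 0.40 and 5 of 18 were higher at that mark, beside 11.5% of all genes. Other left-out libraries lowered these values. At that mark 0 of 18 were higher without control C or without control D, beside 9.36% and 11.1% of all genes. The median was 0.20 without control C and 0.19 without mutant E. With a term for the Y-linked level, which sets the mutants beside control A alone, 1 of 18 lay above 0 and the median was -0.37. The part of sex in these differences cannot be told apart from that of genotype.

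**Figure D1:**
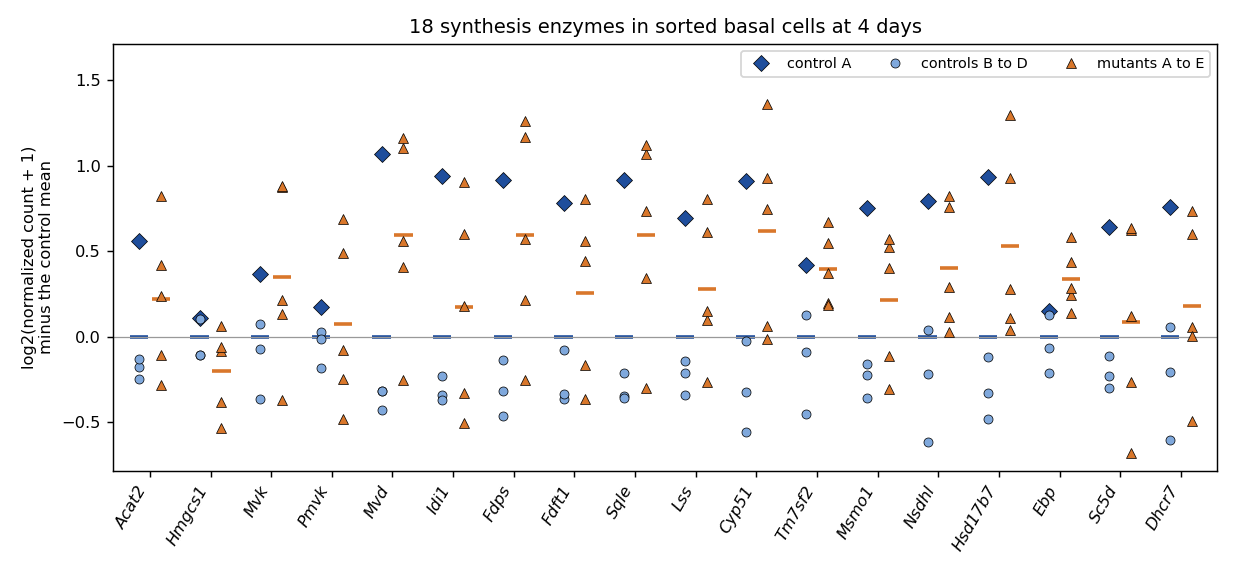
The 18 enzymes in order of the pathway (x axis) and each library's log2(normalized count + 1) minus the mean of the 4 controls (y axis). The diamond is control A, circles are controls B to D, triangles are mutants A to E and bars are group means; control A is the highest control in all 18 enzymes and lies within or above the range of the mutants in each.

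The first enzymes of the mevalonate route showed both the broad overlap and the exception. Acat2, which joins acetyl units to acetoacetyl-CoA, ran from 2067 to 3622 in the controls and from 2017 to 4348 in the mutants. Hmgcs1, which adds the next acetyl unit, had 9491, 8151, 9449 and 8167 in the controls and 8283, 6743, 8421, 6072 and 9169 in the mutants. Its groups overlapped, and it was the only enzyme below 0 (log2 fold change -0.20 ± 0.13 SE, adjusted p = 0.421, and -0.12 without mutant D). Mvk and Pmvk, the successive kinases of mevalonate, ran from 680 to 1133 against 679 to 1614 and from 425 to 546 against 347 to 781. Mvd, which removes the carboxyl group to give isopentenyl diphosphate, had 1376, 526, 527 and 487 in the controls and 1413, 871, 967, 551 and 1473 in the mutants. All 5 mutants were above controls B, C and D, and only mutants A and E were above control A, whose value was 2.68 times the mean of the others (log2 fold change 0.60 ± 0.37 SE, adjusted p = 0.395, and 0.95 without control A). Idi1, the isomerase that makes the second isoprenoid building block, ran from 1591 to 3938 against 1449 to 3850. Fdps, which joins these units to farnesyl diphosphate, ran from 2238 to 5841 against 2591 to 7414.

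In the squalene steps control A was again the highest control of each gene. Fdft1, which joins farnesyl units to squalene, ran from 2066 to 4569 in the controls and from 2063 to 4652 in the mutants. Sqle, the squalene epoxidase, had 6507, 2713, 2696 and 2984 in the controls and 7222, 4374, 5751, 2800 and 7490 in the mutants. Mutant D lay among controls B to D and the other mutants above them, with control A above mutants B and C. Lss, the cyclase that makes lanosterol, ran from 1632 to 3351 against 1722 to 3614.

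With all libraries, the sterol-trimming enzymes included the largest difference of the enzymes and the only unadjusted p under 0.05. Without control A the difference was 0.92 in Cyp51 and 0.95 in Mvd. Cyp51, the lanosterol demethylase, had 3363, 1760, 1213 and 1428 in the controls and 3403, 1869, 3006, 1775 and 4590 in the mutants. Every mutant was above controls B to D, and control A stood above mutants B, C and D (log2 fold change 0.62 ± 0.35 SE, adjusted p = 0.350). Ebp, the sterol isomerase, had 1419, 1393, 1103 and 1217 in the controls and 1909, 1724, 1510, 1404 and 1554 in the mutants. Only mutant D fell inside the controls' range, and the difference did not pass (0.34 ± 0.12 SE, limma unadjusted p = 0.0197, adjusted p = 0.155). Ebp lies on chromosome X, as does Nsdhl, and sex moves with genotype in these cells. With the term for the Y-linked level the Ebp difference was 0.18, and the part of sex in it was not tested. Tm7sf2, a sterol C14 reductase, ran from 302 to 554 against 470 to 660 (0.39 ± 0.19 SE, adjusted p = 0.282, and 0.24 without control C). Of the C4 demethylation enzymes, Msmo1 ran from 3889 to 8398 against 4044 to 7421, Nsdhl from 659 to 1752 against 1029 to 1789 and Hsd17b7 from 543 to 1450 against 777 to 1858. Sc5d, the C5 desaturase, ran from 2041 to 3919 against 1563 to 3889, and Dhcr7, which makes cholesterol from 7-dehydrocholesterol, from 1247 to 3210 against 1348 to 3161.

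Apart from Scap, the SREBP control genes showed no call. Srebf1, whose main product favours fatty acid genes, had 33971, 30497, 36450 and 31229 in the controls and 24388, 22951, 27018, 28592 and 38160 in the mutants. Mutants A to D lay below every control and mutant E above all of them (log2 fold change -0.25 ± 0.15 SE, adjusted p = 0.389). Srebf2, the main activator of cholesterol synthesis, ran from 12508 to 16070 in the controls, with control A highest, and from 10542 to 17544 in the mutants. Insig1, itself an SREBP target that holds SCAP back, had 1392, 579, 551 and 525 in the controls and 975, 383, 859, 380 and 1134 in the mutants. Control A was 2.52 times the mean of the other controls and above every mutant, and the group difference was -0.05 ± 0.42 SE (adjusted p = 0.962), 0.39 in the table of 3 against 3 libraries and -1.05 with the term for the Y-linked level. Insig2, the less sterol-regulated partner, ran from 1530 to 1852 against 1345 to 2199.

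Among the trafficking genes, the cholesterol exporter Abca1 had lower values in the mutants than in 3 of the 4 controls. Abca1 had 4150, 6611, 7476 and 6849 in the controls and 4471, 5710, 5079, 4540 and 4332 in the mutants. Controls B to D lay above every mutant, while control A was the lowest of all 9 libraries (log2 fold change -0.35 ± 0.17 SE, adjusted p = 0.271). Without control A the difference was -0.54 and passed (adjusted p = 0.0494), whereas with the term for the Y-linked level it turned to 0.21. Abcg1, which exports sterol to lipoproteins, had 487, 456, 432 and 358 in the controls and 1685, 917, 359, 200 and 345 in the mutants, so that mutants A and B were above every control and mutants D and E below. Stard4, a soluble sterol carrier, ran from 116 to 242 against 116 to 298, and Npc1, which passes cholesterol out of lysosomes, from 1613 to 1817 against 1234 to 2087.

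**Figure D2:**
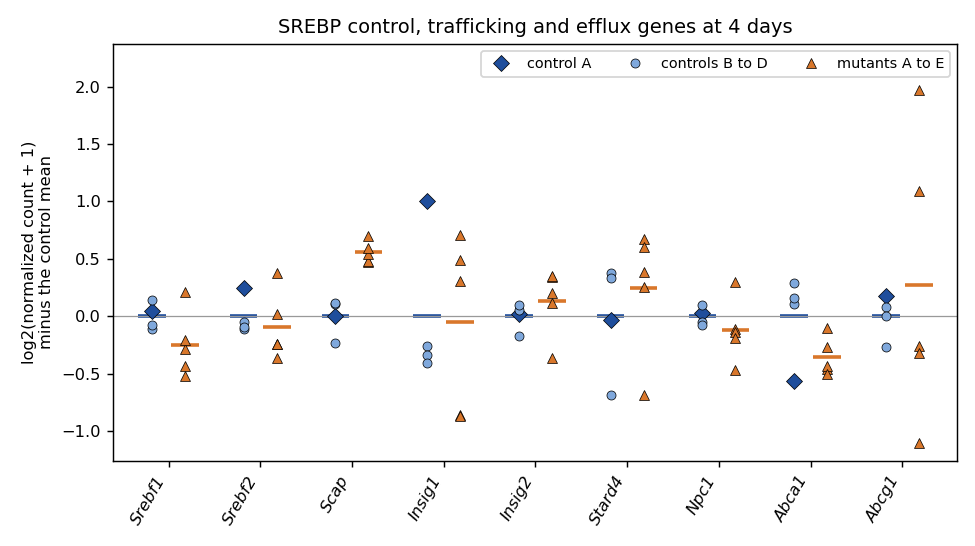
The 5 SREBP control genes and the 4 trafficking and efflux genes (x axis) in the sorted cells, as log2(normalized count + 1) minus the mean of the 4 controls (y axis). The diamond is control A, circles are controls B to D, triangles are mutants A to E and bars are group means; Scap is the gene in which all 5 mutants lie above all 4 controls.

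The 4 wider lists of sterol and fatty acid genes held no call in limma in the sorted cells: 0 of 13 other sterol synthesis and control genes, 0 of 14 uptake, trafficking and esterification genes, 0 of 10 LXR and efflux genes and 0 of 13 SREBP-related fatty acid genes passed. At an unadjusted p under 0.05 these lists held 0, 2, 5 and 3 higher genes and 1, 1, 0 and 0 lower genes, in that order, beside 11.8% of all genes higher and 9.01% lower. Markers of cell types and of proliferation moved beside the comparison. Superficial cell markers were above 0 in 7 of 7 genes with 1 called. Of the 5 basal markers 3 lay below 0, with 1 called lower, and 2 lay above 0. Their log2 differences ran from -1.34 to 1.89. Fibroblast markers were above 0 in 6 of 6 genes with 1 called, with sums from 11651 to 84707 in controls and 30652 to 217371 in mutants. Proliferation markers were above 0 in 5 of 5, all at an unadjusted p under 0.05 in limma and none called. Their sums ran from 429 to 1580 in controls and 1207 to 11672 in mutants. Sums of the macrophage markers overlapped, at 3033 to 4580 and 2799 to 5928. Of 8 macrophage markers tested 5 lay above 0 and none was called. Of these, 2 were higher at an unadjusted p under 0.05 in limma, and 1 was wholly higher in the mutants. Smooth muscle markers were above 0 in 5 of 5 with none called, 3 at an unadjusted p under 0.05 in limma and sums from 166 to 1028 and 382 to 2678. Adipocyte markers were low, with sums from 15.4 to 49.4 and 23.8 to 98.5, Adipoq at 0 in all controls and Lep at 0 in all mutants. Of the 2 adipocyte markers tested, 1 lay above 0 and 1 below, with log2 differences of 3.44 and -0.29. The higher one had an unadjusted p under 0.05 in limma, and neither was called. The Gfp+ sort of the Krt5 lineage is a gate that should remove fibroblasts and smooth muscle cells, and the part of any of these markers' cells in the differences of the 27 genes was not tested.

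The mean log2 level was higher in luminal than in basal tumors for most enzymes, but no gene of the 27 passed the test. Of 18 enzymes, 17 lay above 0, with a median log2 difference of 0.58 and a range from -0.40 to 1.68, beside a median of -0.11 over all 15357 genes tested, of which 46.0% lay above 0. In limma 0 of 27 were called, against 2.20% of all genes, and 0 of 27 had an unadjusted p under 0.05, against 18.4%. No gene of the 27 had groups that did not overlap, while 9.98% of all genes were wholly higher and 11.6% wholly lower in luminal tumors. The mean log2 level over the enzymes was 10.23, 9.84 and 11.45 in basal tumors A to C and 10.36, 11.38 and 11.59 in luminal tumors A to C. Basal tumor C and luminal tumor A therefore crossed the groups. Basal tumor C was the highest basal tumor in 15 of 18 enzymes, against 33.5% of all genes, and luminal tumor A the lowest luminal tumor in 15 of 18, also against 33.5%. Without basal tumor C the enzymes' median was 1.11 and 6 were higher at an unadjusted p under 0.05, beside 8.07% of all genes in that fit, and without basal tumor B it was 0.16. The enzymes above 0 were 11 of 18 without basal tumor B, 11 without luminal tumor C and 13 without basal tumor A.

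With all libraries the largest enzyme difference was in Lss, with 773, 59 and 641 in the basal tumors and 395, 2191 and 1121 in the luminal tumors (log2 fold change 1.68 ± 1.01 SE, adjusted p = 0.413). Basal tumor B was far below the rest, and luminal tumor A lay below the other basal tumors. Without basal tumor B the difference in Lss was 0.49, below that in Dhcr7. Dhcr7 had 142, 1481 and 955 against 1512, 2253 and 944 (1.33 ± 0.82 SE, adjusted p = 0.430), and basal tumor A stood far below the other libraries, without which the difference was 0.31. Tm7sf2 had 259, 288 and 521 against 239, 1544 and 1596 (1.30 ± 0.83 SE, adjusted p = 0.444), with luminal tumor A at the level of the basal tumors, with differences of 2.21 without it, 0.86 without luminal tumor B and 0.84 without luminal tumor C. Mvd had 608, 189 and 1033 against 453, 1536 and 1804 (1.13 ± 0.74 SE, adjusted p = 0.451), and the same luminal tumor lay among the basal ones. Without basal tumor B it was 0.44, and without luminal tumor A 1.76. Sc5d had 825, 1739 and 4105 against 3103, 3551 and 5266 (1.10 ± 0.55 SE, adjusted p = 0.323), where only basal tumor C reached the luminal range, and was 0.54 without basal tumor A. Hmgcs1 was the enzyme below 0, with 3276, 2983 and 3471 against 1783, 2691 and 3060 (-0.40 ± 0.40 SE, adjusted p = 0.645), and -0.17 without luminal tumor A.

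Fdps and Fdft1 of the isoprenoid and squalene steps show how far basal tumor C stood from the others. Fdps had 4520, 3403 and 17974 in the basal tumors and 2565, 12364 and 12376 in the luminal tumors. Fdft1 had 1296, 1243 and 8749 against 2307, 2473 and 3860. In both genes basal tumor C was above all luminal tumors and the other basal tumors were at or near the bottom. Idi1, whose promoter window is printed above, had 3520, 1946 and 5429 in the basal tumors and 1925, 2873 and 8013 in the luminal tumors. Basal tumor C was the highest basal tumor and luminal tumor C the highest luminal tumor, and the shared letter does not link them.

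The remaining enzymes overlapped as well. Acat2 ran from 1195 to 4293 in basal tumors and from 476 to 5611 in luminal tumors, the kinase Mvk from 598 to 3374 against 1564 to 3880 and Pmvk from 651 to 2110 against 1337 to 2633. Sqle ran from 1245 to 4875 against 2356 to 3079, so that the luminal tumors lay inside the basal range. Cyp51 ran from 2231 to 4202 against 1998 to 4232 and Ebp from 2027 to 2564 against 2169 to 3057. Msmo1 ran from 2766 to 8364 against 6634 to 8880, Nsdhl from 515 to 1896 against 872 to 2152 and Hsd17b7 from 172 to 1436 against 484 to 1038.

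**Figure D3:**
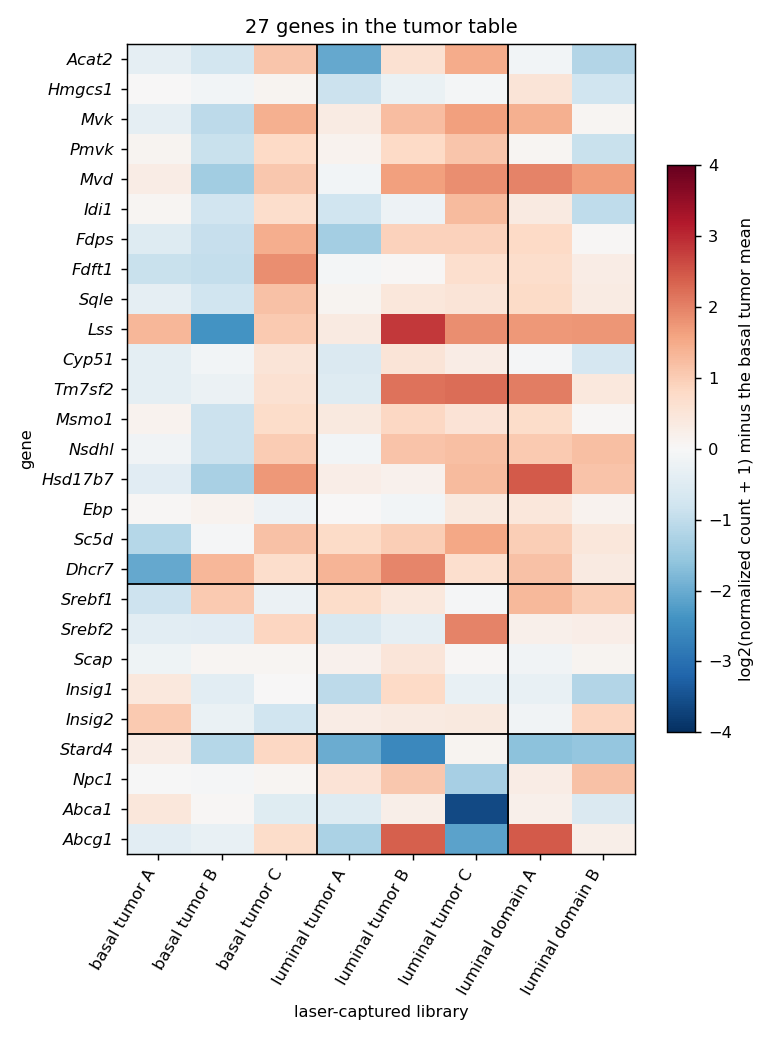
Each of the 27 genes (rows) in the 8 libraries of the tumor table (columns), coloured by log2(normalized count + 1) minus the mean of the 3 basal tumors on a scale from -4 to 4. Basal tumor C is the highest basal tumor in 15 of 18 enzymes, and luminal tumor A is the lowest luminal tumor in 15 of 18.

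The SREBP control genes overlapped in the whole tumors. Srebf1 had 983, 3604 and 1469 in basal tumors and 2908, 2298 and 1682 in luminal tumors. Srebf2 had 2348, 2297 and 5616 against 2013, 2445 and 12442, with the highest basal library being basal tumor C and the highest luminal library luminal tumor C, as for the enzymes. Scap, which passed in the sorted cells, had 1665, 1954 and 1965 against 2094, 2609 and 1901. Insig1 had 838, 476 and 633 against 306, 1098 and 510, and Insig2 had 3068, 1235 and 847 against 1816, 1906 and 1915.

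The 4 trafficking and efflux genes had a median log2 difference of -0.82, with 3 of 4 below 0. Stard4 had 1522, 554 and 2181 in basal tumors and 312, 205 and 1311 in luminal tumors (-1.48 ± 0.79 SE, adjusted p = 0.360), where luminal tumor C was within the basal range, and -0.94 without luminal tumor B or -2.27 without luminal tumor C. Abca1 had 1516, 1147 and 791 against 777, 1311 and 90 (-1.30 ± 0.90 SE, adjusted p = 0.482), and luminal tumor C was far below the other libraries. The difference was -0.14 without luminal tumor C and -2.07 without luminal tumor B. Abcg1 had 222, 241 and 490 against 124, 1550 and 67, so luminal tumor B stood high and the others low. Npc1 had 1151, 1667 and 313 in the luminal tumors, on both sides of the basal tumors.

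Of the 48 tested genes of the 4 wider lists of sterol and fatty acid genes, only Mid1ip1 was called here, 2.08% beside 2.20% of all genes. It encodes a regulator of acetyl-CoA carboxylase and so of fatty acid synthesis. Mid1ip1 had 1409, 2682 and 1526 in basal tumors and 5083, 7876 and 13878 in luminal tumors (log2 fold change 2.20 ± 0.42 SE, adjusted p = 0.0364). Its groups did not overlap, as in 9.98% of all genes in that direction. The Mid1ip1 call was lost without basal tumor A (2.02, adjusted p = 0.131), basal tumor C (2.08, 0.0950), luminal tumor A (2.54, 0.0879) or luminal tumor B (2.23, 0.128), and also without a filter, without a trend and with 6 libraries in the fit. Stromal and macrophage markers moved with the comparison. Sums of the T cell markers overlapped, at 202 to 6558 in basal and 195 to 807 in luminal tumors. Of the 5 markers 2 lay above 0 and none was called, while 1 was wholly lower in luminal tumors. Macrophage markers were below 0 in 8 of 9 genes with none called, none at 0 and sums of 34828 to 163971 in basal against 4206 to 23911 in luminal tumors. Fibroblast markers were below 0 in 6 of 6, with 2 called and sums of 44454 to 66575 against 212 to 17130, and smooth muscle markers summed to 5863 to 47055 against 150 to 1229, with 3 called and Des at 0 in the luminal tumors. Superficial cell markers summed to 4305 to 20094 in basal tumors and 149067 to 876186 in luminal tumors, and proliferation markers to 27105 to 41676 and 2409 to 25738. Basal urothelial markers were below 0 in 5 of 5 genes with 2 called, with sums of 293703 to 661320 in basal and 10659 to 195824 in luminal tumors. Endothelial markers were below 0 in 4 of 4 with none called, with sums of 1252 to 2287 and 370 to 1053. The part of these cell types in the differences of Stard4, Abca1 and the enzymes was not tested.

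The luminal domains were compared with the same basal tumors, so the results are not independent of those of the whole luminal tumors. No gene of the 27 was called in limma, against 2.53% of 14921 genes tested. Nsdhl, Ebp and Npc1 were wholly higher and Stard4 wholly lower in the domains, beside 14.0% and 12.8% of all genes without overlap in those directions. Of the 18 enzymes 13 lay above 0, with a median of 0.54 beside 0.01 over all genes, of which 50.4% lay above 0. Leaving out basal tumor C gave a median of 1.06 and 8 enzymes higher at an unadjusted p under 0.05, beside 11.4% of all genes in that fit, and leaving out basal tumor B a median of 0.11. Of the 27, only Nsdhl (higher) and Stard4 (lower) had an unadjusted p under 0.05, beside 20.6% of all genes, 11.1% higher and 9.45% lower.

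Nsdhl, a sterol dehydrogenase of the C4 demethylation complex encoded on chromosome X, had 890, 532 and 1975 in the basal tumors and 2054, 2346 and 2401 in the luminal domains. Basal tumor C came close to the lowest domain (log2 fold change 1.21 ± 0.49 SE, limma unadjusted p = 0.0399, adjusted p = 0.220). Ebp, also on chromosome X, had 2528, 2626 and 2094 against 3345, 2727 and 4525 (0.52 ± 0.30 SE, adjusted p = 0.370). Npc1 had 867, 846 and 918 against 1110, 2069 and 1227 (0.69 ± 0.39 SE, adjusted p = 0.364). Stard4 had 1899, 678 and 2692 against 492, 539 and 274 (-1.86 ± 0.61 SE, limma unadjusted p = 0.0158, adjusted p = 0.149), with every domain below every basal tumor. Mvd had 640, 195 and 1076 against 2070, 1708 and 772 (1.45 ± 0.71 SE, adjusted p = 0.296). Without basal tumor B the difference was 0.75 in Mvd and 0.77 in Nsdhl, without luminal domain C it was 0.33 in Ebp, and without luminal domain B 0.41 in Npc1. Srebf1 had 1028, 3697 and 1520 against 4511, 3720 and 1942, and Scap 1739, 2001 and 2029 against 1788, 2170 and 2317, both with overlap.

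The other enzymes of the luminal domains stood inside or across the wide basal range. Fdps ran from 3514 to 18718 in basal tumors and from 6718 to 12016 in the domains, Fdft1 from 1284 to 9119 against 3249 to 4192 and Sqle from 1290 to 5093 against 1959 to 3970. The cyclase Lss ran from 64 to 858 against 676 to 1194, Tm7sf2 from 277 to 549 against 495 to 1532 and Dhcr7 from 148 to 1513 against 813 to 1395. Mvk ran from 636 to 3619 against 1464 to 3662, Msmo1 from 2890 to 8813 against 4992 to 9041, Hsd17b7 from 177 to 1490 against 476 to 2503 and Sc5d from 867 to 4267 against 2698 to 4482. The 5 enzymes below 0 were Acat2, Hmgcs1, Pmvk, Idi1 and Cyp51, of which Acat2 ran from 1233 to 4466 against 955 to 1973 and Hmgcs1 from 3092 to 3628 against 2010 to 4961. Pmvk ran from 666 to 2178 against 640 to 1342, Idi1 from 2008 to 5648 against 1769 to 4598 and Cyp51 from 2438 to 4540 against 2065 to 3947.

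Of the control genes, Srebf2 ran from 2443 to 6024 in basal tumors and stayed between 3976 and 4307 in the domains. Insig1 ran from 490 to 881 against 305 to 547 and Insig2 from 905 to 3315 against 1475 to 2998. The exporters overlapped, with Abca1 at 826 to 1601 against 815 to 1386 and Abcg1 at 227 to 497 against 316 to 1692.

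Among 47 tested genes of the wider lists Mid1ip1 was the only call, 2.13% beside 2.53% of all genes, with 1496, 2791 and 1601 in basal tumors and 16131, 14280 and 7312 in luminal domains (2.66 ± 0.40 SE, adjusted p = 0.0258). The Mid1ip1 call was lost without a trend and without any of the 6 libraries but basal tumor B, with adjusted p from 0.0593 (without basal tumor C) to 0.128 (without luminal domain B). Macrophage markers were below 0 in 7 of 9 genes with none called, with sums of 36345 to 172679 in basal tumors and 15243 to 43122 in domains. Fibroblast markers summed to 45948 to 70263 and 5011 to 31289, and smooth muscle markers to 6123 to 49561 and 1393 to 1911, with Cnn1 at 0 in the domains. Of 5 proliferation markers 4 were called lower, with sums of 28857 to 45366 and 5447 to 9716. Superficial cell markers were above 0 in 7 of 7 genes with 2 called, with sums of 4529 to 20738 and 115649 to 501763. Basal urothelial markers were below 0 in 5 of 5 with 1 called, with sums of 317068 to 705760 and 165728 to 268267. The part of these cells in the differences of Stard4, Nsdhl, Ebp and Npc1 was not tested.

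**Figure D4:**
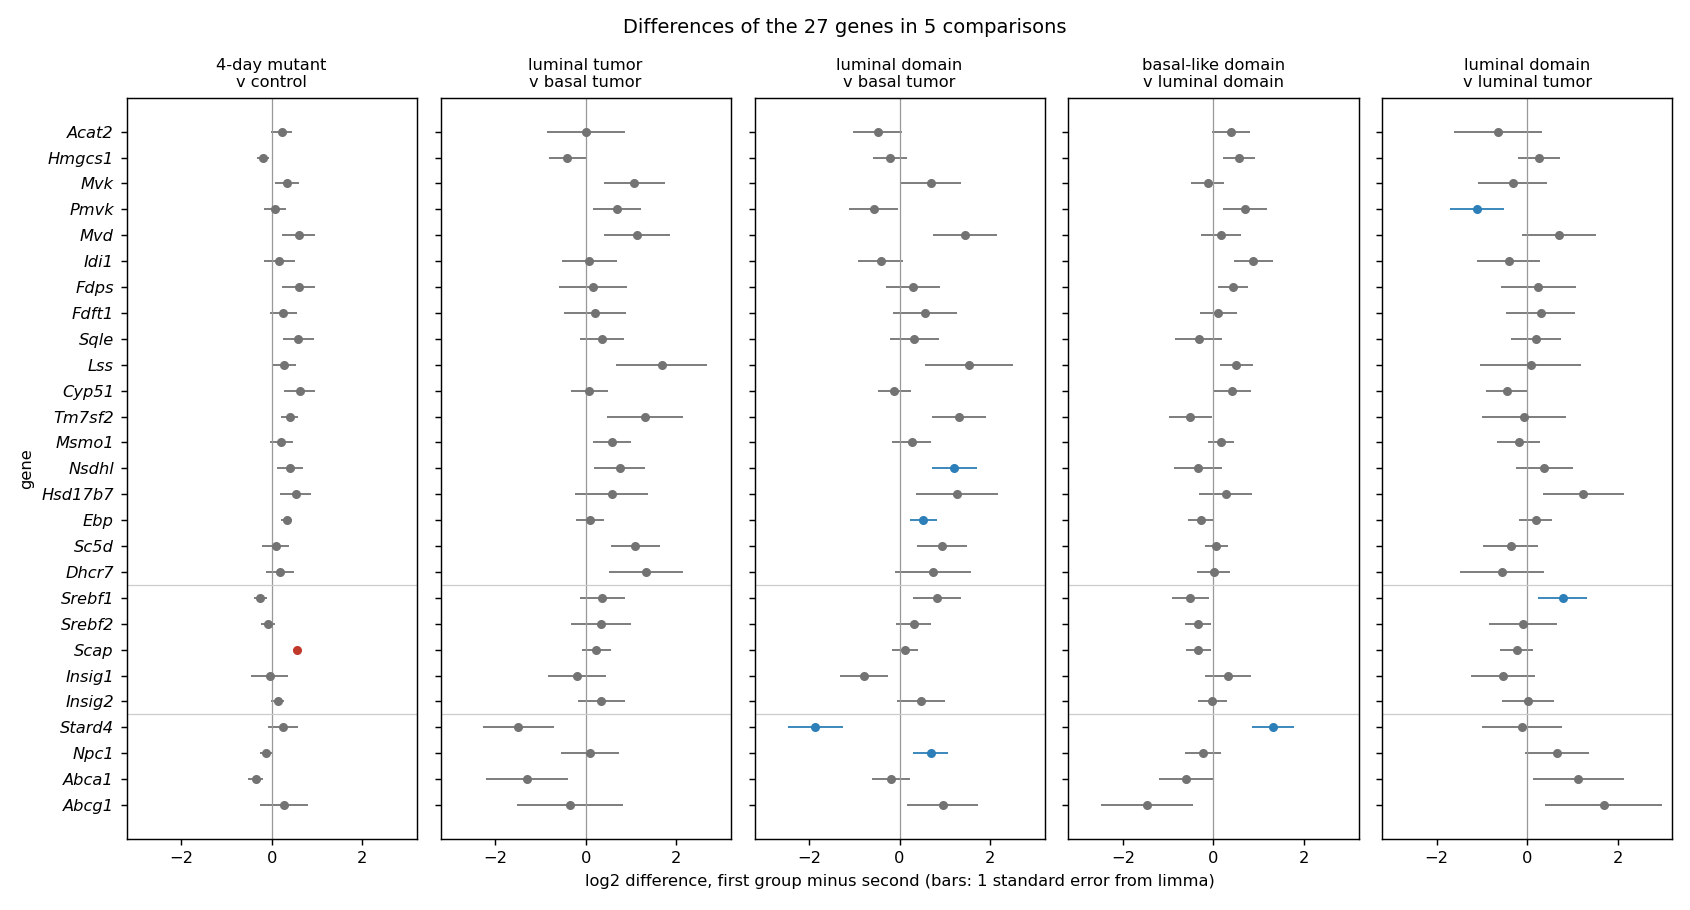
The log2 difference of each of the 27 genes ± 1 SE in the 5 comparisons (panels), from limma on log2(normalized count + 1). Red marks the gene called (Scap in the sorted cells), blue marks genes whose groups do not overlap and grey marks the rest; most standard errors in the tumor panels span 0.

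Between basal-like and luminal domains no gene of the 27 passed the test. In limma no gene at all was called among 14874, with 20 called when the trend was left out; 757 genes, 5.09%, had an unadjusted p under 0.05, 2.59% of all genes being higher, and so was 1 of the 27. Stard4 had 489, 543 and 276 in the luminal domains and 799, 931 and 1535 in the basal-like domains. All basal-like domains were above all luminal domains, beside 5.62% of all genes without overlap in that direction and 5.14% in the other (log2 fold change 1.32 ± 0.46 SE, limma unadjusted p = 0.0211, adjusted p = 0.935). At 1 of 27 this is near those shares, and no gene of the 27 had an unadjusted p under 0.05 without luminal domain C or without basal-like domain C. The luminal domains are shared with the comparison against basal tumors, so the low luminal values enter both results.

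The other genes overlapped between the domains. Idi1 had 4709, 1835 and 2257 in luminal domains and 3234, 7231 and 5220 in basal-like domains (0.88 ± 0.43 SE, adjusted p = 0.935), with luminal domain A inside the basal-like range. Abcg1 had 1856, 414 and 351 against 711, 295 and 59 (-1.47 ± 1.02 SE, adjusted p = 0.935), and the difference was -0.71 without luminal domain A and -0.49 without basal-like domain C. Nsdhl, higher in luminal domains than in basal tumors, had 2076, 2402 and 2456 against 732, 2945 and 2802. Hmgcs1 had 5012, 2057 and 2522 against 3958, 4632 and 4564. Of the 18 enzymes 13 lay above 0 with a median of 0.17, beside 50.7% of all genes. The count and median were 8 of 18 and -0.01 without basal-like domain B, and 9 of 18 and 0.05 without luminal domain C. Of the control genes, 4 of 5 lay below 0, among them Srebf1 with 4747, 3965 and 2068 against 3478, 2469 and 1552 and Scap with 1789, 2199 and 2347 against 1338, 1697 and 2005. Abca1 had 1410, 840 and 961 against 1612, 589 and 339, and Npc1 ran from 1128 to 2130 against 794 to 1646. Among the enzymes above 0, Lss ran from 639 to 1130 against 1033 to 1662, Cyp51 from 2119 to 4048 against 2350 to 6718 and Fdps from 6817 to 12050 against 8214 to 16756. The 5 enzymes below 0 were Mvk, Sqle, Tm7sf2, Nsdhl and Ebp, of which Ebp ran from 2886 to 4784 against 2340 to 3466 and Sqle from 1999 to 4002 against 1066 to 4480. The remaining enzymes, Acat2, Pmvk, Mvd, Fdft1, Msmo1, Hsd17b7, Sc5d and Dhcr7, lay above 0 with overlap, as did Insig1 at 316 to 560 against 329 to 652. Srebf2 ran from 4461 to 4890 against 2624 to 5411 and Insig2 from 1576 to 3245 against 1940 to 2753. Luminal domain A was the highest luminal domain in 13 of 18 enzymes, against 35.0% of all genes, and basal-like domain A the lowest basal-like domain in 12 of 18, against 35.5%. Macrophage markers summed to 15407 to 44002 and 18570 to 43297, fibroblast markers to 5225 to 32313 and 13859 to 104068, and proliferation markers to 5607 to 9953 and 14276 to 23671. Superficial cell markers were below 0 in 7 of 7 genes, with sums of 117902 to 504510 and 34041 to 123325. T cell markers were above 0 in 4 of 5, with sums of 361 to 1196 and 1110 to 3009. Basal urothelial markers were above 0 in 5 of 5, with sums of 173688 to 277321 and 247634 to 453364. Smooth muscle markers were above 0 in 4 of 4 tested. Proliferation markers were above 0 in 5 of 5, of which 4 had an unadjusted p under 0.05 in limma. None of these markers was called. The part of these cells in the difference of Stard4 was not tested.

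**Figure D5:**
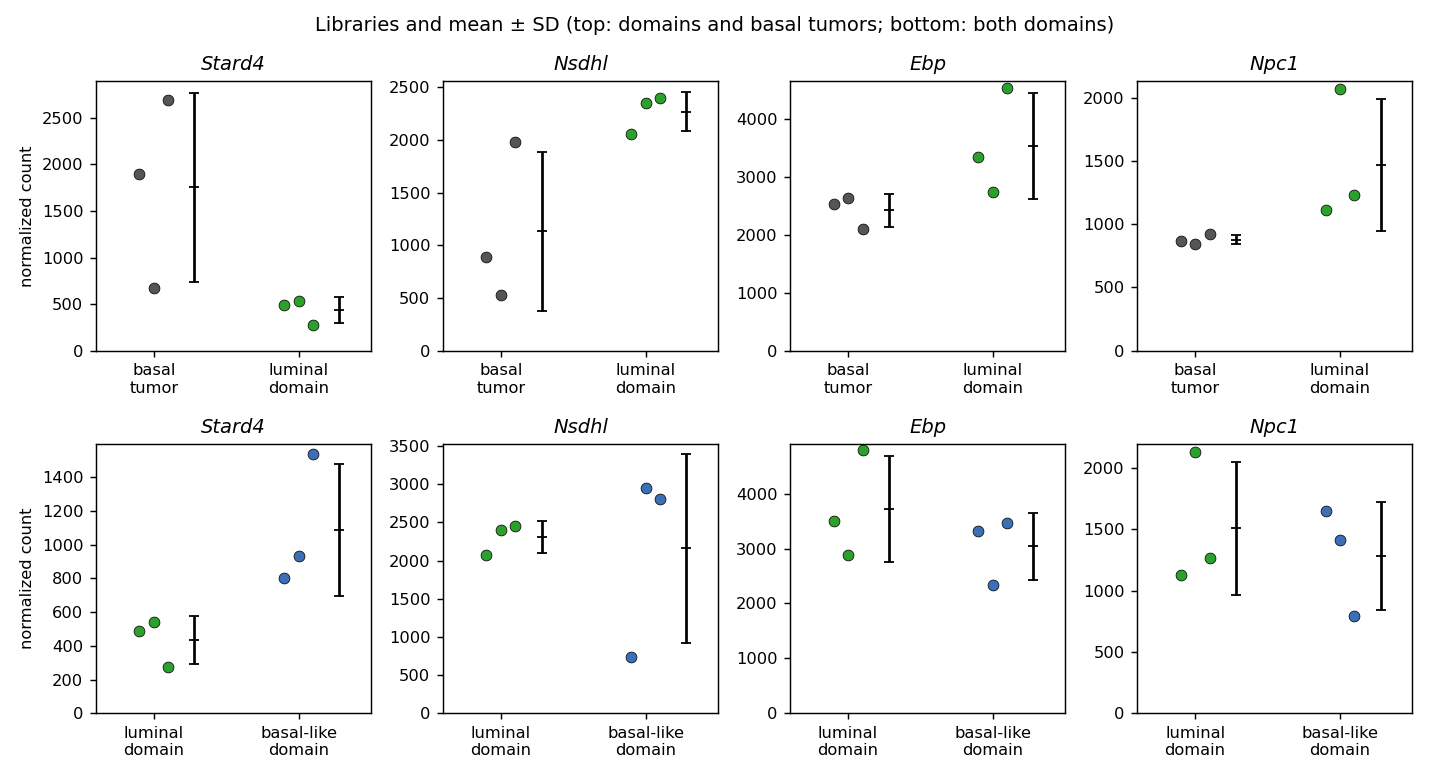
Normalized counts of Stard4, Nsdhl, Ebp and Npc1, each point a library with the mean ± SD, in basal tumors and luminal domains (top) and in luminal and basal-like domains (bottom). Stard4 is low in all 3 luminal domains on both rows, while Nsdhl, Ebp and Npc1 are higher in the luminal domains than in the basal tumors without overlap.

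Luminal domains and whole luminal tumors were set against each other in the tumor table, where 2 luminal domains have values. No gene was called among 16640, with 7 called without the trend, and 4.57% had an unadjusted p under 0.05, as had none of the 27. The enzymes were split, with 9 of 18 above 0 and a median of 0.00, beside 54.1% of all genes above 0, and 6 to 13 were above 0 with a library left out. Srebf1 was wholly higher in the domains, with 4248 and 3459 against 2908, 2298 and 1682 (0.77 ± 0.55 SE, adjusted p = 0.998), beside 10.7% of all genes without overlap in that direction. Pmvk was wholly lower, with 1267 and 647 against 1337, 2111 and 2633 (-1.11 ± 0.60 SE, adjusted p = 0.998, and -0.62 without luminal domain B), beside 8.91% of all genes without overlap in that one. The other 25 genes overlapped, among them Stard4 with 388 and 420 in the domains against 312, 205 and 1311 in the luminal tumors, and Scap with 1688 and 2021 against 2094, 2609 and 1901. Basal urothelial markers were above 0 in 5 of 5 genes, fibroblast markers in 6 of 6 and endothelial markers in 4 of 4. Smooth muscle markers were above 0 in 4 of 5, macrophage markers in 7 of 9 and superficial cell markers in 2 of 7. None of these markers was called, and the part of their cells in the differences of Srebf1 and Pmvk was not tested.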

How the data were processed

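The study profiled RNA from Gfp+ sorted bladder cells and from laser-captured tumors, with SMART-Seq v4 and Nextera XT libraries. Per the submitters' processing notes, bcl2fastq 2.20, kallisto 0.44.0 and DESeq2 1.18 were used, and builds GRCh38 and GRCm38 are named. The deposited values are a signal: gene counts that the authors estimated with kallisto, summed with tximport and normalized with DESeq2, so reads per library are unknown and no count test was run. The authors normalized each table separately, so tests stayed within a table.

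Each comparison used limma 3.58.1 (R 4.3.3) with a trend on log2(normalized count + 1), two-sided, over genes with at least 10 normalized counts in as many libraries as the smaller group, with Benjamini-Hochberg adjustment at 0.05 over all genes tested and no covariate. Fold changes are on this scale and understate those of low genes. The luminal tumor comparisons used a model of 3 group means. The code was tested on simulated data. Promoters were read from RefSeq windows, and plots were drawn with matplotlib 3.10.9 from tables made with pandas 2.3.3 under Python 3.11.15.

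The 27 genes, the wider lists and the markers were chosen with earlier results of these data known. All 27 are described, with every library's value where a gene was called or its groups did not overlap, and called genes of the wider lists are named. Other pseudocounts, filters, scalings, trends, tables and left-out libraries were tried. A table of untreated and BBN-treated wild type bladders (8 per-sample columns) was not used because its columns could not be matched to samples. Lists of the authors' fold changes and p-values were not used.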

Additional observations from a re-analysis of the deposited data

Results flagged for a closer look

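In 11 of the 54 pairs of gene and 4-day group tested, the highest library stood apart by Dixon's criterion, in which the gap to the nearest library is divided by the range of the group. All 11 were in the controls, where the limit is 0.829 for 4 libraries, and the library was control A each time, with the highest value. Chance gives about 1 in 20 groups, and genes of one pathway are not independent. Of all genes tested, 6.61% had a library apart in the controls and 6.01% in the mutants. Of the 11, 9 were enzymes. The ratio was 0.886 for Acat2, 0.955 for Mvd, 0.932 for Idi1, 0.84 for Fdps, 0.924 for Sqle and 0.859 for Lss. It was 0.873 for Msmo1, 0.83 for Hsd17b7 and 0.851 for Sc5d. Of the SREBP control genes, Srebf2 had 0.835 and Insig1 had 0.937. No group of mutants passed the limit of 0.71 for 5 libraries.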

How the results depend on the processing

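No paired analysis was possible because the columns carry no replicate number that ties a library to another group, so top and bottom captures of a tumor could not be matched. In the sorted cells the genes called, 467 with the settings reported, were 147 in the table of 3 against 3 libraries, 26 with the Y-linked term, 269 without a trend and 129 to 596 with a library left out. Of the 27, 0 were called in the table of 3 against 3 and 0 with the Y-linked term, and 0 (without control D) to 2 (without control A) with a library left out. Scap kept its direction at 0.58, 0.55 and 0.48 to 0.60. The Y-linked term turned the signs of Tm7sf2 to -0.025, Cyp51 to -0.29, Mvd to -0.47 and Abca1 to 0.21, and moved the enzymes' median to -0.37. Insig1 was 0.39 in the table of 3 against 3, -1.05 with the Y-linked term and -0.23 to 0.29 with a library left out. The enzymes' median was 0.58 in the table of 3 against 3 and 0.19 to 0.50 with a library left out.

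For luminal against basal tumors the 338 genes called were 52 without a filter, 142 without a trend, 513 with luminal domains pooled, 142 with 6 libraries in the fit and 3 to 813 with a library left out. For luminal domains against basal tumors the 377 were 144 without a filter, 107 without a trend and 0 to 467 with a library left out. The 0 calls between domains were 20 without a trend and 0 with a library left out, and those of luminal domains against luminal tumors were 7 and 0 to 1. Scaling to the upper quartile moved the median of all genes from 0.01 to -0.14 for luminal domains, and the share of calls that were higher from 67.4% to 57.2%. With a library left out, the enzymes' median was 0.16 to 1.11 for luminal tumors, 0.11 to 1.06 for luminal domains, -0.01 to 0.43 for basal-like domains and -0.52 to 0.31 for luminal domains against luminal tumors. The cause of these changes was not tested.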
